A study of Mus musculus with 4 samples.

Results

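This account covers 8 genes of noradrenaline sensing and clearance, 8 of the 31053 genes in the count files, each found by its symbol: the receptors Adra1a, Adra1b, Adra2a, Adrb1 and Adrb3, the monoamine oxidases Maoa and Maob, and the transporter Slc22a3. Their transcripts were read in single cells of the stromal vascular fraction, the cells of fat other than mature adipocytes, from the fourth inguinal depot of C57BL/6 mice aged 8 weeks. Of 4 libraries, 2 came from mice held for 24 h at 4 °C and 2 from mice at room temperature, with no transgene or drug named in the labels. The study's title concerns control of the adipocyte heat program by the duct epithelium of the mammary gland. The labels do not say whether the libraries of a group came from separate animals, so the p-values measure only the spread between these libraries.

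Noradrenaline, released by sympathetic nerves in the cold, acts on G protein-coupled receptors. Alpha-1 receptors couple to Gq and calcium, alpha-2 receptors to Gi, which lowers cAMP, and beta receptors to Gs, which raises cAMP; in fat cells the beta route drives lipolysis and heat production. The signal ends when noradrenaline is taken up into cells by transporters, among them the low-affinity organic cation transporter encoded by Slc22a3, and is broken down by enzymes that include the monoamine oxidases of the outer mitochondrial membrane.

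The libraries held 35198164 to 55160902 unique molecular identifiers (UMIs, each counting 1 captured RNA molecule) over 3871 to 6339 barcodes, and 5 to 10 barcodes were shared by any pair of libraries. Filtering left 15197 cells in 41 clusters, of which 14283 cells fell into 14 classes named by marker genes; a class name stands for cells resembling that type. Of 6 markers of mature adipocytes, 5 had 12 to 97 UMIs in all cells (97 of Adipoq, 19 of Ucp1), while Lipe, the hormone-sensitive lipase, had 4479, of which 33.9% lay in hormone-sensing luminal cells. Of 6 markers of sympathetic neurons, Th and Dbh had 0 UMIs and Snap25 and Prph 20 each, while Uchl1 had 1275, with 90.9% in fibroblasts, and Stmn2 793, with 58.6% in vascular endothelium. A level is given in CPM, the counts of a gene per 1000000 summed UMIs of a class in 1 library. Genes called as changed had an adjusted p under 0.05 in edgeR's quasi-likelihood test within the class.

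On GRCm38, the GENCODE annotation places all 8 as protein-coding genes. Adra2a lies on chromosome 19 from 54044151 to 54048982 and Adrb1 on the same chromosome from 56722199 to 56733113, both on the plus strand and 2673216 bases apart. Maoa, on the X chromosome from 16619698 to 16687818 on the plus strand, and Maob, from 16709282 to 16817366 on the minus strand, face each other with 21463 bases between their 3′ ends. Adra1a is on chromosome 14 (66635251 to 66771168, plus strand), Adra1b on chromosome 11 (43774606 to 43901210, minus strand), Slc22a3 on chromosome 17 (12418960 to 12507704, minus strand) and Adrb3 on chromosome 8 (27225776 to 27250616, minus strand).

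RefSeq promoter sequences (GRCm38.p6) were matched for 5 of the 8 genes. Shown are the 250 bases before the start of the 2 receptors that were highest in hormone-sensing luminal cells and of the oxidase found in the most classes, all on the plus strand. Capitals mark GC boxes (GGGCGG) and the core of the cAMP response element (TGACG) on either strand.
Adra2a, chr19:54045009-54045258: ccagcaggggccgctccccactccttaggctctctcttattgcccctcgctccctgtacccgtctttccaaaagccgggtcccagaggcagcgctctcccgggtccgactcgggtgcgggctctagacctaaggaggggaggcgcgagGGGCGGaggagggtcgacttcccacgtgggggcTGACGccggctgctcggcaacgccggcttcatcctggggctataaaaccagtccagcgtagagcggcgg
Adrb1, chr19:56721867-56722116: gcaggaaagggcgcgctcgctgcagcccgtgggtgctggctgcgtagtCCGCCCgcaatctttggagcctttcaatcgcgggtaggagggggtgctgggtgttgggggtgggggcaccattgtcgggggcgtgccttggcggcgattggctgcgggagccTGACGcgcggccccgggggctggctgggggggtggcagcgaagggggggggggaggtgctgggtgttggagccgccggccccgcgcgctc
Maoa, chrX:16619448-16619697: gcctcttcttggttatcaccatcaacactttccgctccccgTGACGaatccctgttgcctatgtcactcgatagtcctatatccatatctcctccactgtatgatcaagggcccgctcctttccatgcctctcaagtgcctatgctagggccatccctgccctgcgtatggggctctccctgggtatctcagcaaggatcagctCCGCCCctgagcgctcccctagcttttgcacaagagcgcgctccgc
Each of the 3 windows held 1 GC box and 1 core. Among 32851 promoter windows of 250 bases, 32.7% held a GC box and 17.8% a core. The full palindrome (TGACGTCA), which overlaps the core, occurred in 1.55% of all windows and in none of these 3. The matched windows not shown did not hold both motifs. Adra1b had 0 GC boxes and 0 cores before 1 start, and 1 GC box and 0 cores before another. Slc22a3 had 0 GC boxes and 1 core. Adra2a had 1 TATA box (TATAAA, in 12.4% of windows) and Adrb1 had 1 CCAAT box (CCAAT, in 33.8%). The Adra2a window lies inside the longer GENCODE gene. A match is a description of the letters only.

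The receptors split by compartment: beta-1 and alpha-2A transcripts were highest in hormone-sensing luminal epithelium, alpha-1B in mural cells of vessels and in fibroblasts, and alpha-1A in mural and hormone-sensing cells. Adrb1, the receptor that raises cAMP, was measured in hormone-sensing luminal cells, the duct cells that carry oestrogen, progesterone and prolactin receptors, at 38.3 and 36.1 CPM in the cold libraries and 16.3 and 32.0 CPM at room temperature. Its lowest library there lay above the highest of the class ranked next, macrophages and monocytes, at 4.99 and 5.53 CPM in cold and 11.2 and 6.59 at room temperature. Of 2401 Adrb1 UMIs, 51.2% came from this class, which held 10.5% of the cells. Its cells were deeper, with a median of 19075 UMIs against 7186 over all kept cells. The share of UMIs therefore cannot be read directly against the share of cells. A UMI of Adrb1 was seen in 41.5% of the 1589 hormone-sensing cells (95% exact binomial interval 39.1 to 44.0; median depth 19075 UMIs) and in 0.104% of 2880 fibroblasts (0.0215 to 0.304; median depth 9236 UMIs). With cells thinned to 2000 UMIs these shares were 5.84% and 0%. Cells under 2000 UMIs, here 32 hormone-sensing cells and 174 fibroblasts, were left out of this and of all later shares after thinning. Such intervals cover counting error only. Natural killer cells (6.04 ± 5.82 CPM, SD, n = 4 libraries, 13 UMIs), alveolar progenitors (5.28 ± 4.16) and basal cells (3.19 ± 2.78) followed, and their libraries overlapped with those of macrophages.

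Adra2a, the receptor that lowers cAMP, had 19.8 and 41.9 CPM in hormone-sensing cells of the cold libraries and 25.6 and 22.1 CPM at room temperature. These 1179 UMIs were 64.1% of all Adra2a UMIs. A UMI was seen in 29.8% of hormone-sensing cells (4.56% after thinning), against 0.315% of alveolar progenitors (median depth 5569 UMIs) and 0.729% of fibroblasts. In mural cells 4 UMIs, all in room-temperature replicate 2, gave a mean of 6.27 CPM, and the next classes were basal cells (1.15 ± 1.45) and macrophages (1.13 ± 0.982).

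Adra1a, coupled to Gq, was found in 2 unrelated classes. In pericytes and vascular smooth muscle, the mural cells that set vessel tone, the libraries gave 14.7 and 22.9 CPM in cold and 31.3 and 6.27 CPM at room temperature, from 18 UMIs in 157 cells. In hormone-sensing cells they gave 8.11 and 7.30 CPM in cold and 4.43 and 46.4 CPM at room temperature. Room-temperature replicate 2 thus stood 5.72 times above the next library, from 140 cells, the smallest number of the 4. In that class and library, 13 of 6676 genes with at least 20 CPM in some library (0.195%) were 4 or more times above every other library, Adra1a among them. The order of mural and hormone-sensing cells was not separable, since their libraries overlapped, and the next class, endothelium, had 0.628 ± 0.109 CPM.

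Adra1b, the other Gq-coupled receptor measured, was found mainly in fibroblasts by UMIs, with 9.79 and 16.4 CPM in cold and 15.3 and 15.7 CPM at room temperature in fibroblasts and adipose progenitors. These 363 UMIs were 91.7% of the total. Mural cells had the highest mean, 15.7 ± 8.23 CPM, from 14 UMIs, and their libraries overlapped with those of fibroblasts. A UMI was seen in 10.1% of fibroblasts and in 0.0576% of 3474 macrophages (median depth 6594 UMIs), or 3.22% and 0% after thinning.

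Adrb3, the beta receptor of mature adipocytes, had 6 UMIs in all 15197 cells, 3 in cold replicate 1 and 3 in room-temperature replicate 1. A share of 0.0395% of cells (0.0145 to 0.0859%) held one, and no class can be ranked from it.

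**Figure D1:**
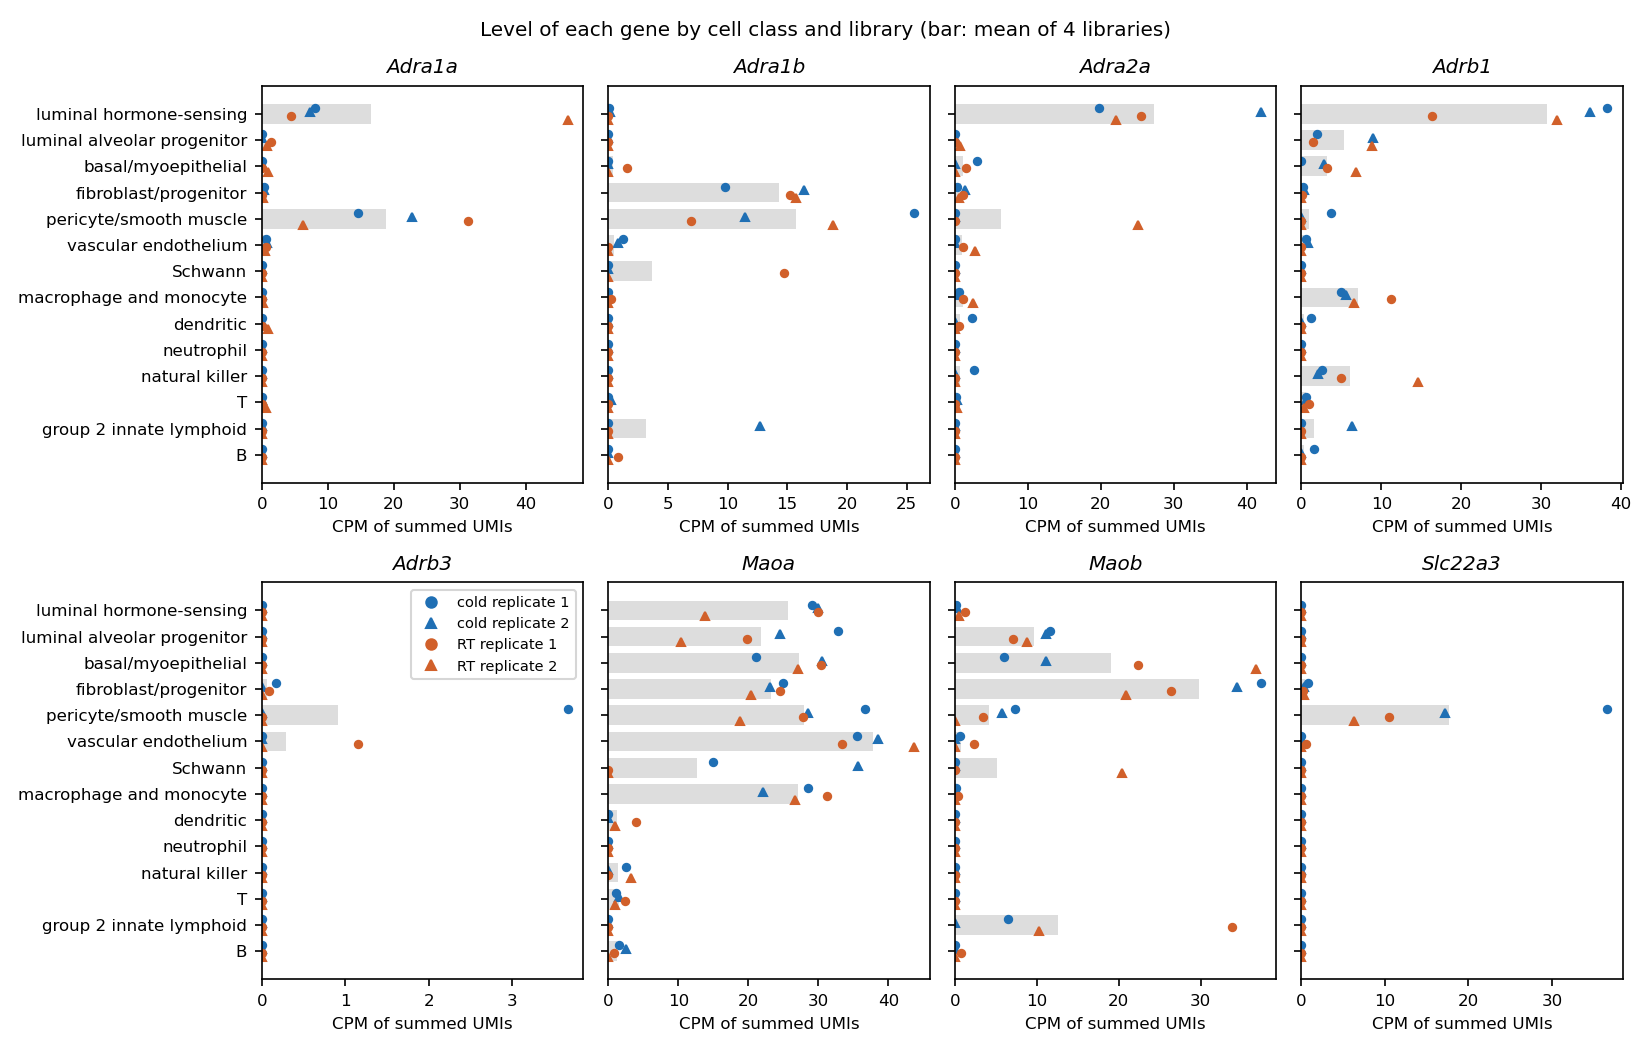
Level of the 8 genes in CPM of summed UMIs (x axis) in 14 cell classes (y axis). Points are the 4 libraries (blue cold, orange room temperature) and bars their means. Adrb1 and Adra2a peak in hormone-sensing luminal cells at means of 30.7 and 27.4 CPM, Maob in fibroblasts at 29.8 CPM, and Maoa is above 20 CPM in 7 classes.

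The clearance genes followed another division. Maoa, the oxidase that prefers noradrenaline and serotonin, was spread over stroma, epithelium, vessels and macrophages. Its highest class was vascular endothelium at 35.5 and 38.5 CPM in cold and 33.4 and 43.7 CPM at room temperature. Mural cells (28.0 ± 7.29), basal cells (27.3 ± 4.42), macrophages (27.1 ± 3.83), hormone-sensing cells (25.7 ± 7.90), fibroblasts (23.2 ± 2.05) and alveolar progenitors (21.9 ± 9.40) came next, each overlapping its neighbour in this order. Lymphocytes were low: T cells had 1.49 ± 0.692 CPM, B cells 1.22 CPM on average and natural killer cells 1.45 ± 1.70, and dendritic cells also had only 1.23 CPM. A UMI was seen in 24.2% of endothelial cells (median depth 6355 UMIs) and in 0.740% of T cells (median depth 4947 UMIs), or 6.02% and 0.0969% after thinning.

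Maob, the oxidase that prefers phenylethylamine and shares dopamine with Maoa, was concentrated in fibroblasts, with 37.4 and 34.4 CPM in cold and 26.4 and 20.9 CPM at room temperature. These 748 UMIs were 78.1% of the total. Basal cells, the contractile outer layer of the duct, ranked next with 6.02 and 11.1 CPM in cold and 22.3 and 36.8 CPM at room temperature. Cold replicate 2 held 19 basal cells, under the 20 needed, and no test was made. Group 2 innate lymphoid cells followed at 12.6 ± 14.7 CPM, from 7 UMIs, with 0 to 33.8 CPM over libraries. Alveolar progenitors had 9.66 ± 2.10 CPM, while hormone-sensing cells had 0.553 and macrophages 0.224 CPM on average. A UMI was seen in 20.5% of fibroblasts and in 0.173% of macrophages.

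The balance of the 2 oxidases differed between classes that had similar Maoa. Of the UMIs of the pair, Maob made up 55.2% in fibroblasts (95% interval 52.5 to 57.9, and 50.6 to 60.0 over libraries). Maob made up 47.2% in basal cells (22.2 to 57.6 over libraries) and 33.3% in alveolar progenitors (26.1 to 46.2), whose libraries overlapped. It made up 2.02% in hormone-sensing cells (0.597 to 3.79 over libraries), 1.99% in endothelium and 0.855% in macrophages. In the 3 epithelial classes the libraries of hormone-sensing cells lay below all those of alveolar and basal cells. UMIs count molecules rather than fragments, so gene length does not enter, but capture can differ between genes, and only the change of the split between classes is read.

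Slc22a3, the transporter that takes noradrenaline into non-neuronal cells, had 32 UMIs. Mural cells held 17 of them, at 36.6 and 17.1 CPM in cold and 10.4 and 6.27 CPM at room temperature. All 4 libraries lay above the next class, fibroblasts, at 0.404 ± 0.285 CPM. The 10 fibroblast UMIs all came from the 238 cells of the cluster led by Dcn, Inmt and Apod, where the libraries gave 10.4 and 5.64 CPM in cold and 7.03 and 6.01 CPM at room temperature.

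**Figure D2:**
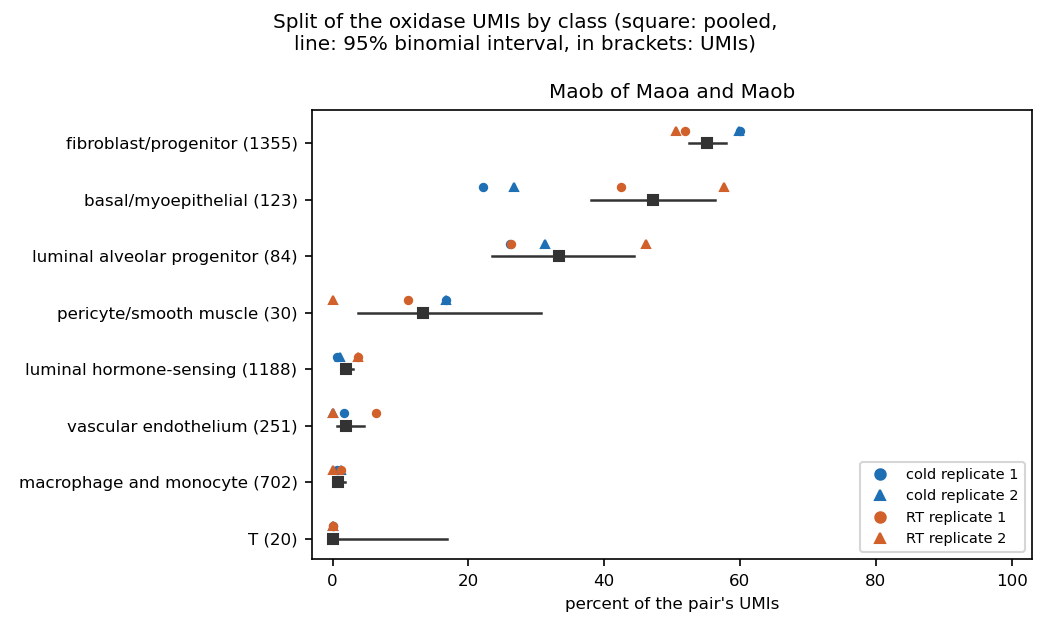
Percent of the UMIs of the 2 oxidases taken by Maob (x axis) in classes with at least 20 UMIs of the pair (y axis, UMIs in brackets). Squares and lines are pooled shares with 95% binomial intervals, and small points are libraries (blue cold, orange room temperature); Maob reaches 55.2% in fibroblasts and 2.02% in hormone-sensing cells.

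Further genes of the pathway had other class patterns. Among the named classes, the alpha-2 receptor gene Adra2b was highest in mural cells (9.70 ± 6.11 CPM, SD, n = 4 libraries, 8 UMIs) and Adra2c in endothelium (3.46 ± 2.77 CPM, 21 UMIs), and Adra1d had 0 UMIs. A cluster of 31 cells with markers of both mural and endothelial cells, which belongs to no named class, had 52.7 ± 31.0 CPM of Adra2c (20 UMIs). Sult1a1, a sulphotransferase of phenols, was highest among these classes in endothelium (509 ± 60.2 CPM) and Aldh2, an aldehyde dehydrogenase downstream of the oxidases, in basal cells (390 ± 48.0 CPM).

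Within a class the genes also differed by cluster. Hormone-sensing cells formed a cluster led by Prlr, the prolactin receptor (1047 cells), a pair led by Upk3a and Fgb (337 and 176 cells) and one of 29 cells. Adra2a had 17.6 and 33.6 CPM in cold and 21.9 and 10.8 CPM at room temperature in the Prlr-led cluster. In the Upk3a-led cluster of 337 cells it had 44.1 and 58.5, and 41.4 and 53.7 CPM. Adrb1 ran the other way, with 39.5 and 47.1, and 30.7 and 42.9 CPM in the Prlr-led cluster against 26.4 and 15.4, and 14.0 and 11.3 CPM in the Upk3a-led one. For both genes the 4 libraries of these clusters did not overlap. The smaller Upk3a-led cluster, with 2 cells in cold replicate 1, had 60.2 CPM of Adra2a in cold replicate 2 and 13.9 and 25.1 CPM at room temperature. Adra1a was a transcript of the Prlr-led cluster, where room-temperature replicate 2 reached 70.3 CPM beside 8.86 to 11.4 in the other 3. In the same library and cluster Maoa was low, at 9.91 CPM beside 27.9 to 30.5, and Adra2a was lowest. The members were left out of the genes used for clustering, and these differences are given without a test.

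Fibroblast clusters differed in Adra1b and Maob. In the cluster led by Igfbp6 and Pi16, genes of interstitial progenitors, Adra1b had 30.2 and 33.2 CPM in cold, from 33 and 81 cells. At room temperature it had 26.2 and 26.5 CPM, from 614 and 177 cells. The clusters led by Col3a1 and Postn and by Dcn and Sfrp2 had at most 8.31 and 6.87 CPM in any library, and the one led by Dcn and Inmt had 0 UMIs of Adra1b. Maob was 32.8 to 79.0 CPM over libraries in the Dcn- and Inmt-led cluster and 11.9 to 18.7 CPM in the Col3a1- and Postn-led one. Macrophage clusters differed in Maoa: the C1qa-led cluster of 1363 cells had 46.5 and 52.7 CPM in cold and 43.3 and 71.7 CPM at room temperature, and Adrb1 of 6.79 to 14.2 CPM. The C1qa-led cluster of 298 cells had 24.9 to 35.5 CPM of Maoa. The Lyz1-led cluster of 708 cells had at most 1.15 CPM of Maoa in any library.

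**Figure D3:**
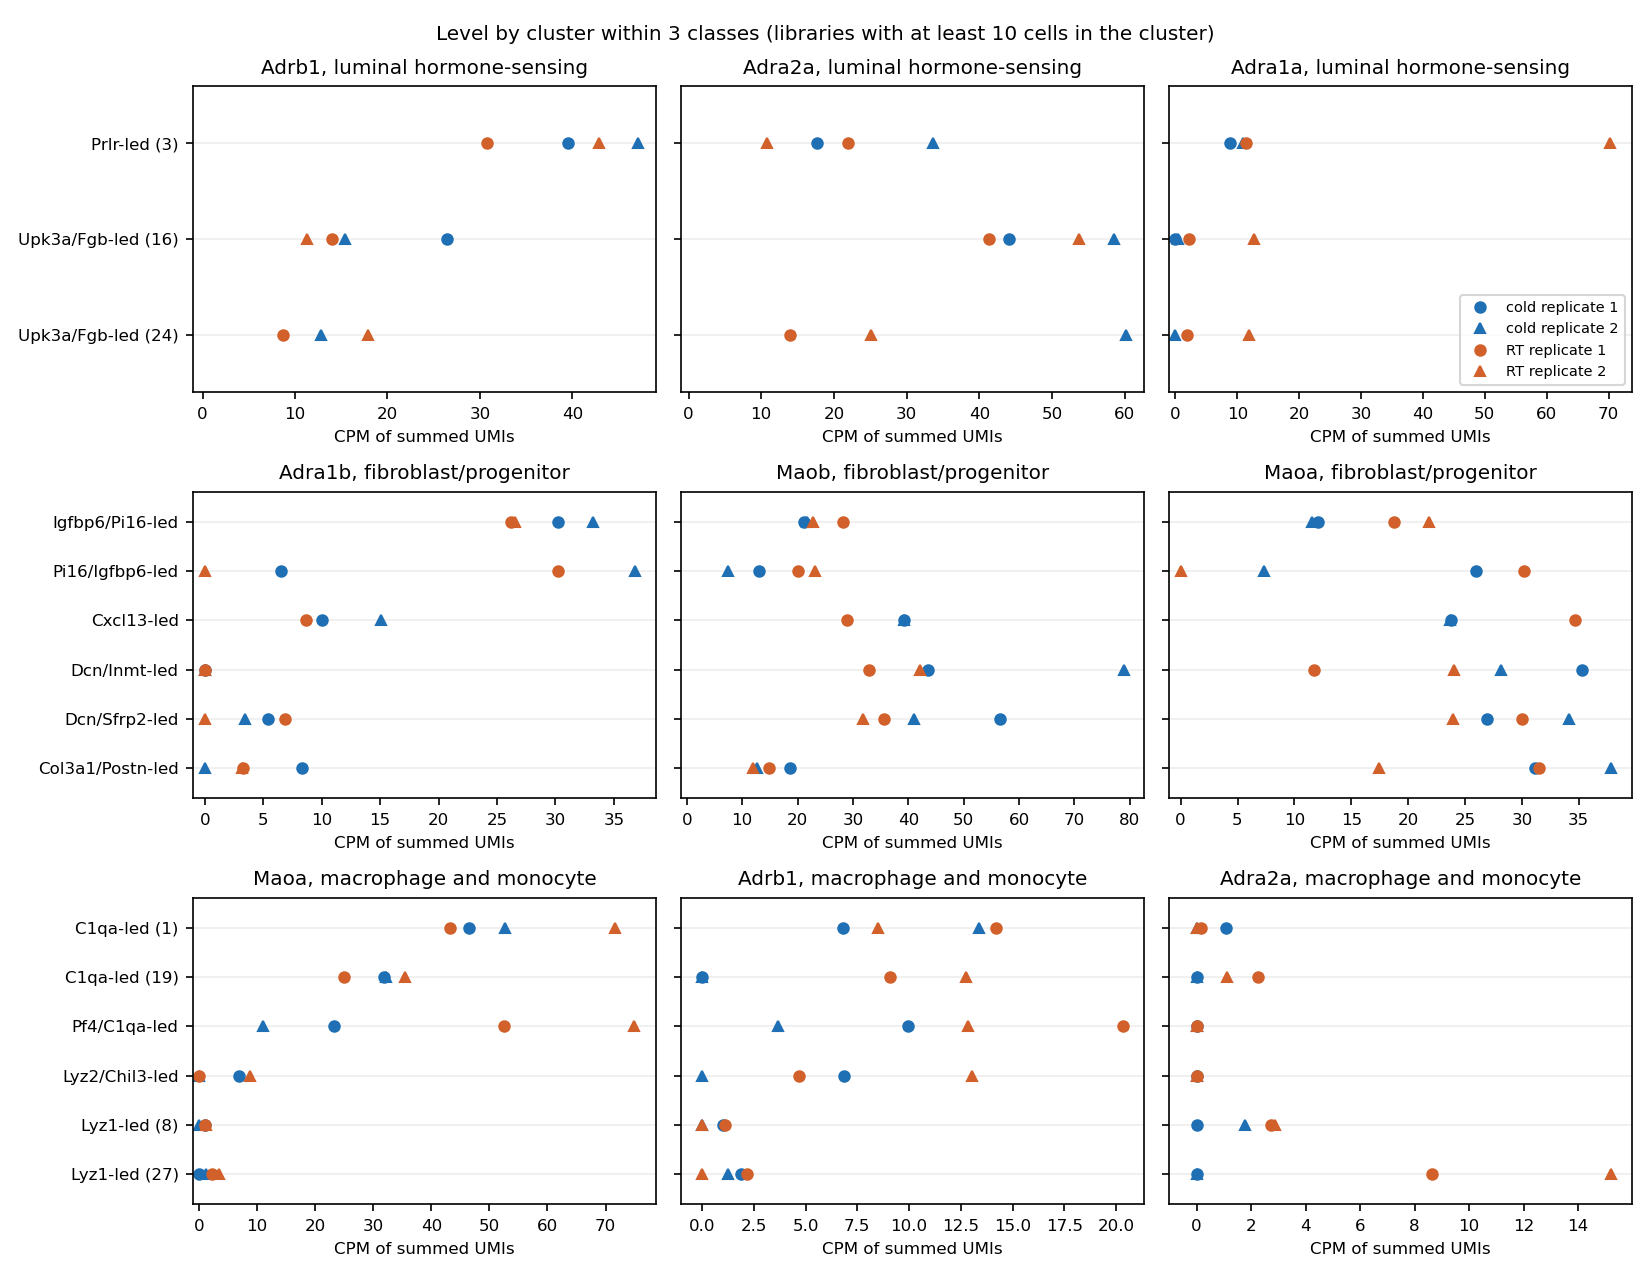
Level in CPM of summed UMIs (x axis) of 3 genes in the clusters (y axis, named by leading genes) of hormone-sensing, fibroblast and macrophage cells, for libraries with at least 10 cells in the cluster; 1 cluster of 29 hormone-sensing cells and 1 of 86 macrophages are not drawn. Points are libraries (blue cold, orange room temperature): Adra2a is 41.4 to 58.5 CPM in the Upk3a-led cluster of 337 cells and Adra1b 26.2 to 33.2 CPM in the Igfbp6-led cluster.

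Across the 14 classes, the genes most like each member by Pearson correlation of log2(mean CPM + 5), among 10612 genes, were Abcc8 (r = 0.98), Gipc2 and Proc for Adra2a, and Nrxn3 (0.91), Capn8 and Lamtor2 for Adrb1. For Adra1a they were Trpc6 (0.94), Abcc8 and Cdk18, for Adra1b Adamtsl1 (0.93), Runx1t1 and Lox, for Maoa Twf1 (0.94), Pcyox1 and Msantd4, and for Maob Plxdc2 (0.86), Sema3c and Nox4. Slc22a3 was closest to Map3k7cl, Myocd and Trpv1, each with r above 0.99 and highest in mural cells. It had 17.6 CPM in mural cells and 0.404 CPM in the next class. These r therefore rest on the mural class alone and are not read as a likeness. Those of Adra2a (27.4 CPM in hormone-sensing cells, 6.27 in the next class) and Adrb1 (30.7 and 7.07) rest largely on hormone-sensing cells. Those of Adra1a and Adra1b rest largely on their 2 highest classes, with 0.628 and 3.68 CPM in the class after these. They describe little beyond those classes. The classes share libraries and differ in depth, and Adrb3 was too low for a likeness.

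No member passed the test between cold and room temperature in any class. The filter on low counts left 11 tests of 6 members in 5 classes, of which 0 were called by edgeR or by DESeq2 and 1 had an unadjusted p under 0.05; Adrb3 and Slc22a3 were tested in none. Of all genes tested, 3.1% were called in fibroblasts, 0.00787% in hormone-sensing cells, 0.206% in macrophages, 0.0821% in alveolar progenitors and 0% in endothelium. In sums over a class, a change within cells and a change in which clusters make up the class cannot be told apart. Differences within the largest cluster of a class are given for Maob and Adrb1 and wherever the direction turned.

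Maob in fibroblasts came nearest, at 35.9 ± 2.07 CPM in cold against 23.6 ± 3.89 CPM at room temperature (SD, n = 2 libraries each). The log2 difference was 0.62 (SE 0.17, edgeR adjusted p = 0.112). The Cxcl13-led cluster held 447 of 719 and 231 of 466 fibroblasts in cold and 53 of 1340 and 3 of 355 at room temperature. The Igfbp6-led cluster held 33 and 81 cells in cold and 614 and 177 at room temperature. Within the Igfbp6-led cluster Maob had 21.2 and 21.6 CPM in cold and 28.3 and 22.8 CPM at room temperature, a log2 difference of -0.31. Maob passed the threshold without room-temperature replicate 1 (0.88, edgeR adjusted p = 0.0262), with no filter on low counts (0.61, edgeR adjusted p = 0.00376) and with the replicate number as a block (0.64, edgeR adjusted p = 0.0210).

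Adrb1 had differences of opposite sign in its 2 tested classes, neither called. In hormone-sensing cells it averaged 37.2 ± 1.56 CPM in cold against 24.2 ± 11.1 CPM at room temperature, a log2 difference of 0.72 (SE 0.28, edgeR adjusted p = 0.465). Room-temperature replicate 1 was the lowest library, and most of its hormone-sensing cells, 193 and 126 of 447, were in the Upk3a-led clusters. Within the Prlr-led cluster the groups overlapped and the log2 difference was 0.30. In macrophages it averaged 5.26 ± 0.384 CPM in cold against 8.89 ± 3.25 CPM at room temperature (difference on the log2 scale -0.80, SE 0.35, edgeR adjusted p = 0.450). The C1qa-led cluster of 1363 cells held 319 of 610 and 166 of 416 macrophages in cold and 745 of 1520 and 133 of 928 at room temperature; within it the groups overlapped and the log2 difference was -0.52. The difference between these 2 classes was not tested.

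Maoa differed by 0.12 (SE 0.16) in fibroblasts, 0.38 (SE 0.38) in hormone-sensing cells, 0.90 (SE 0.47) in alveolar progenitors, -0.20 (SE 0.19) in macrophages and -0.04 (SE 0.21) in endothelium, on the log2 scale. Adra2a differed by 0.38 (SE 0.37) in hormone-sensing cells and Adra1b by -0.25 (SE 0.23) in fibroblasts. Adra1a in hormone-sensing cells differed by -1.54 (SE 0.99), a value that turned to 0.77 without room-temperature replicate 2. Within the largest cluster alone, the difference turned to -0.80 for Maoa and 0.26 for Adra1b in fibroblasts (the Igfbp6-led cluster) and to 0.58 for Maoa in endothelium (the cluster of 399 cells). Each of the 8 adjusted p of at least 0.563.

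**Figure D4:**
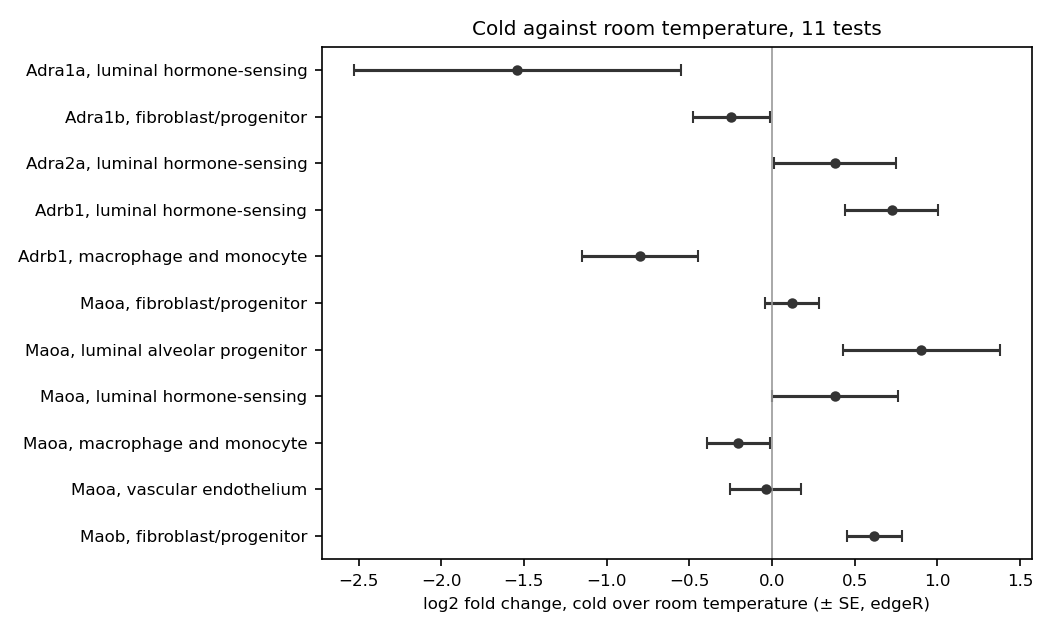
Log2 fold change of cold over room temperature (x axis, points, with bars of 1 SE from edgeR) for the 11 tests of a member in a class (y axis). Maob in fibroblasts lies at 0.62 and Adra1a in hormone-sensing cells at -1.54, with none past the threshold.

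The cold effect in fibroblasts was set against that in each of the 10 other tested classes as an interaction, in which no member was called. Of 38 such tests, 4 were of a member kept by the filter in both classes, each time Maoa, with edgeR adjusted p of at least 0.413. The other tests, among them the 5 with an unadjusted p under 0.05, had counts that were too low in 1 class to be read. Its difference from the fibroblast effect was 0.75 (SE 0.51) in alveolar progenitors, 0.33 (SE 0.31) in hormone-sensing cells, -0.42 (SE 0.20) in macrophages and -0.17 (SE 0.31) in endothelium. Of all genes, the interaction called 0.148% against B cells, 0.0569% against T cells, 0.0251% against dendritic cells, 0.403% against group 2 innate lymphoid cells, 0.0996% against alveolar progenitors, 0.0144% against hormone-sensing cells, 0.607% against macrophages, 0.246% against natural killer cells, 0.367% against mural cells and 0.242% against endothelium.

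No other receptor, transport, breakdown or synthesis gene was called between cold and room temperature. Adra1d, Adra2b and Adra2c were tested in no class. Of 18 tests of other transport and breakdown genes and 2 of synthesis genes, 0 were called by edgeR or DESeq2, with 4 and 1 at an unadjusted p under 0.05. Their lowest adjusted p was that of Slc18a2, the vesicular monoamine transporter, in group 2 innate lymphoid cells, with 6.52 and 6.37 CPM in cold and 115 and 112 CPM at room temperature (30 UMIs in 12 of 157 cells, log2 difference -3.95, edgeR adjusted p = 0.0759). Of these 12 cells 11 also held UMIs of mast cell markers. The 6 mast cell markers summed to 4665 and 0 CPM in cold and 24652 and 6779 CPM at room temperature in this class, from 5025 UMIs in 18 cells. Their part in the difference was not tested. Of 132 tests of G protein, adenylyl cyclase and protein kinase A genes 0 were called by either tool and 11 had an unadjusted p under 0.05.

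Of 95 tests of cAMP-induced and thermogenic targets over 11 classes, 1 rose and 9 fell in cold, and 50 had an unadjusted p under 0.05. Of this list, 4 of 9 tested genes fell in T cells, 3 of 8 in natural killer cells and 2 of 9 in dendritic cells, and 1 of 9 rose in fibroblasts. The share of all genes called was 2.84%, 2.93%, 0.235% and 3.1% in these classes, and the list's median log2 difference was -0.61, -0.44, -0.12 and 0.64 beside medians over all genes of 0.01 or less in size. In classes without a call of this list, its median ran from -1.25 in group 2 innate lymphoid cells to 0.88 in endothelium. Fosb and Nr4a1 belong both to this list and to that of tissue-dissociation stress below, so the lists are not independent. Nr4a3, an immediate-early nuclear receptor, fell in T cells from 161 and 146 CPM at room temperature to 57.0 and 64.3 CPM in cold. Crem, the cAMP-responsive repressor, fell in natural killer cells from 513 and 494 to 149 and 171 CPM. Nr4a2 fell in T, natural killer and dendritic cells by 1.40, 1.17 and 1.29 on the log2 scale. The period gene Per1 fell in T cells by 1.24. In fibroblasts Pnpla2, the triglyceride lipase, rose from 22.3 and 19.1 to 44.0 and 41.4 CPM. Leaving out 1 library kept 7 or 8 of these 10 calls.

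Of the genes that end the signal, 3 of 11 tested fell in T cells: the phosphodiesterases Pde4d (by 1.33) and Pde4b (by 0.90), and Rgs2, a brake on G proteins (by 0.95). These were the only calls in 109 tests of that list, of which 23 had an unadjusted p under 0.05. T cells of the cold libraries lay in large part in a Cd8b1-led cluster (504 and 240 cells, against 44 and 8 at room temperature). With each class held to its largest cluster, 5 of the 10 calls among targets and 0 of these 3 passed the threshold. All 13 kept their direction. Natural killer cells formed 1 cluster, so their 3 calls among targets could not change in this setting.

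Genes of the tissue-dissociation stress response were called in fibroblasts and in natural killer, dendritic, T and B cells. Of 196 tests in 11 classes 21 rose and 0 fell in cold, among them 5 of 18 genes in fibroblasts, 6 in natural killer cells, 5 in dendritic cells, 4 in T cells and 1 of 17 in B cells, where 0.0911% of all genes were called. Without room-temperature replicate 2, 13 of the 21 were still called, and 15 to 21 without 1 of the other libraries. The list's median log2 difference was also 1.38 in endothelium and 1.31 in mural cells, where no gene was called. There 18 of 18 and 12 of 18 tests had an unadjusted edgeR p under 0.05. In the other classes without a call of this list, the median was 0.51 in group 2 innate lymphoid cells and 0.19 in macrophages. It was -0.60 in alveolar progenitors and -0.42 in hormone-sensing cells. Hspa1a, a heat-shock chaperone, had 804 and 631 CPM in cold and 110 and 98.7 CPM at room temperature in fibroblasts. Their part in the changes above was not tested. No gene of any kind was called in group 2 innate lymphoid cells (0%) or mural cells (0%).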

How the data were processed

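The deposited values are unnormalized UMI counts, made by the authors with Cell Ranger 3.0.2 on mm10/GRCm38 per the submitters' processing notes; no source used here names the annotation release. Kept cells had 500 or more genes and a mitochondrial share under 15%, and the top simulated-doublet scores were removed (0.8% per 1000 cells). Leiden clusters (resolution 1, 30 components, 2000 variable genes without the members) were named by marker genes, with naming thresholds set on these data; 914 cells of mixed or unnamed clusters were set aside. Sums per class and library were tested with edgeR 4.0.16 (TMM, filterByExpr, quasi-likelihood F-test, two-sided, Benjamini-Hochberg within the class) where each library held 20 or more cells. DESeq2 1.42.0, other scalings, filters, clusterings, a replicate block and leaving out each library were alternatives. The fit was tested on simulated data. The members, lists and markers were chosen with earlier results of these data known. All 8 members are shown in every named class. Of the list genes, only some of those called are named, with up to 3 of the highest level per list. Promoter sequences are RefSeq's and positions GENCODE's. Some genes of these lists are not reported here.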

Additional observations from a re-analysis of the deposited data

Results flagged for a closer look

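A cluster of 643 cells carried markers of both hormone-sensing and alveolar luminal cells, with a median of 44401 UMIs per cell, and belonged to no named class or test. It held 5 members above 3 UMIs in every library: Adrb1 at a mean of 27.3 CPM, Maoa at 23.4 CPM, Adra2a at 19.9 CPM, Adra1a at 12.0 CPM and Maob at 2.23 CPM. Adra1a had 5.86 and 6.35 CPM in cold and 6.92 and 28.9 CPM at room temperature, so room-temperature replicate 2 was again the highest library. The cluster held 38.1% of all Adrb1 UMIs and 43.9% of all Adra1a UMIs.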

How the results depend on the processing

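The count of members called between cold and room temperature was 0 of 11; it became 1, Maob in fibroblasts, with a replicate block (edgeR adjusted p = 0.0210), with no low-count filter (0.00376) and without room-temperature replicate 1, so that leaving out each library gave 0 to 1. With 2 pairs, deviations of same-numbered libraries correlated from -0.37 to 0.41 over the classes, so the block rests on a number only; a crossed block gave 0 calls. The interaction count was 0 also with RLE scaling, with no low-count filter and without each library, the alternatives run for it, and 18 pairs of member and class had a mean of at least 10 CPM (17 or 18 under each alternative). Of 154 alternative log2 differences, 139 kept direction and side of the threshold, 3 passed it and 12 reversed. Some of the 139 repeat the main value, since the wider margin, the finer clustering or the largest cluster left a class unchanged. The count therefore overstates stability. With the largest cluster of each class alone, Adra1b in fibroblasts was 0.26, Maoa in fibroblasts -0.80, Maob in fibroblasts -0.31 and Maoa in endothelium 0.58, the last also with a second-type margin of 1.5. Leaving out each library, Adra1a in hormone-sensing cells ranged from -2.48 to 0.77, Adra2a from -0.22 to 0.81 and Maoa from -0.052 to 1.19; in fibroblasts Adra1b ranged from -0.57 to 0.088 and Maoa from -0.0075 to 0.33, and in endothelium Maoa from -0.24 to 0.20. The causes of the other reversals were not tested. DESeq2 called 16 tests of cAMP-induced and thermogenic targets and 37 of stress genes, beside 10 and 21 with edgeR. At Leiden resolution 2 a lymphatic endothelial class appeared with 104 CPM of Maoa, above the vascular class. Low UMI counts limit Adrb3 (6 in all cells), Slc22a3 (32) and the mural cells (14 to 26 for Adra1a, Adra1b, Maoa and Slc22a3). The crossed block, largest clusters and wider margin were chosen after seeing the data.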
